A study of Mus musculus with 6 samples.

Results

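Antioxidant, glutathione and NRF2 target genes were examined in 4T1 cells, a mouse mammary carcinoma line, with and without METTL7A1. The group was defined as 41 named genes of the glutathione, thioredoxin and NRF2 pathways, and all 41 were found among the 48587 genes of the deposited count table. The METTL7A1 group was stably transfected with full-length Mettl7a1 cDNA in the pBICEP-CMV-2 vector, where a viral CMV promoter drives the gene, and was kept under G418. The mock group carried the empty vector. Both groups grew in DMEM/F12 with fetal bovine serum. Total RNA of 3 libraries per group was sequenced after depletion of ribosomal RNA. The libraries are called biological triplicates, but whether the transfected cells were clones or pools, or came from separate transfections, is not stated in the sources used here. P values therefore measure the spread between these libraries only.

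Cells remove peroxides and other electrophiles with thiols. Glutathione and the thioredoxins donate electrons to peroxidases and reductases and are themselves recharged with NADPH, much of it from the pentose phosphate pathway. NRF2, the transcription factor encoded by Nfe2l2, is held in the cytoplasm and sent to degradation by KEAP1; oxidants and electrophiles block KEAP1, and NRF2 then pairs with small MAF proteins on antioxidant response elements of genes such as Nqo1, Hmox1, Gclm and Txnrd1. Many carcinomas rely on this programme, which also detoxifies drugs through glutathione transferases.

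Totals lay between 18386780 and 28459338 counts per library. Mettl7a1 was at 342, 385 and 422 cpm (counts per library size after TMM scaling, the unit of all levels below) in METTL7A1 replicates 1 to 3 and at 1.64, 1.24 and 1.17 cpm in mock replicates 1 to 3, so every library followed its label. Epithelial markers (Epcam, Cdh1, Krt8, Krt18, Krt14 and Cd24a) were detected in all libraries, with summed levels of 1566 to 1848 cpm in METTL7A1 and 1650 to 2018 cpm in mock. Within this list Krt14 had 36.8 to 39.1 cpm in mock and 9.05 to 10.5 cpm in METTL7A1 libraries, a log2 fold change of -1.94 that passed the study thresholds (SE 0.09, edgeR adjusted p = 7.54e-08). Cd24a also fell (log2 fold change -0.74, SE 0.10, edgeR adjusted p = 0.000171), and the other 4 were not called. With the neighbour offset described below, Cd24a lost its call (-0.24, edgeR adjusted p = 0.0863). Cdh1 (0.27, edgeR adjusted p = 0.0435) and Krt8 (-0.32, edgeR adjusted p = 0.045) were called with it. The summed levels of 4 leukocyte markers were at most 0.324 cpm and those of 3 endothelial markers at most 0.892 cpm in any library. Of 4 fibroblast or mural markers, Pdgfra alone was above 1 cpm, and the sum of the list was 23.3 to 26.2 cpm in METTL7A1 and 16.99 to 19.3 cpm in mock. Pdgfra was called higher in METTL7A1 (log2 fold change 0.47, SE 0.09, edgeR adjusted p = 0.00177). As this is bulk RNA, more cells that express a gene and more RNA per cell cannot be told apart.

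Of the 41 members, 38 had at least 1 cpm in at least 3 libraries and were tested. In METTL7A1 cells 15 were higher and 8 were lower at an adjusted p under 0.05, and 15 did not pass (edgeR quasi-likelihood test, Benjamini-Hochberg adjustment over all 13166 genes tested). The share called was thus 60.5% of the tested members, compared with 42.1% of all genes, of which 21.1% were higher and 21% lower. The called members lay between -1.01 and 1.23 on the log2 scale, and 11 of the 23 exceeded 0.5 in size, as did 2571 of the 5537 called genes. The median size of the log2 fold change was 0.37 over the tested members and 0.25 over all genes. No member passed the thresholds used in the study (adjusted p under 0.01 and a log2 fold change over 1.5 in either direction), which 2.48% of all genes did. The median log2 fold change of the tested members was 0.08, and that of all genes was -0.03. In 23 of the 38 members the values of the 2 groups did not overlap (14 above and 9 below mock), as in 51.6% of all genes. Gsr and Sod1 were called although their groups overlapped, and Gstm5 and Mgst3 were not called although theirs did not.

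**Figure D1:**
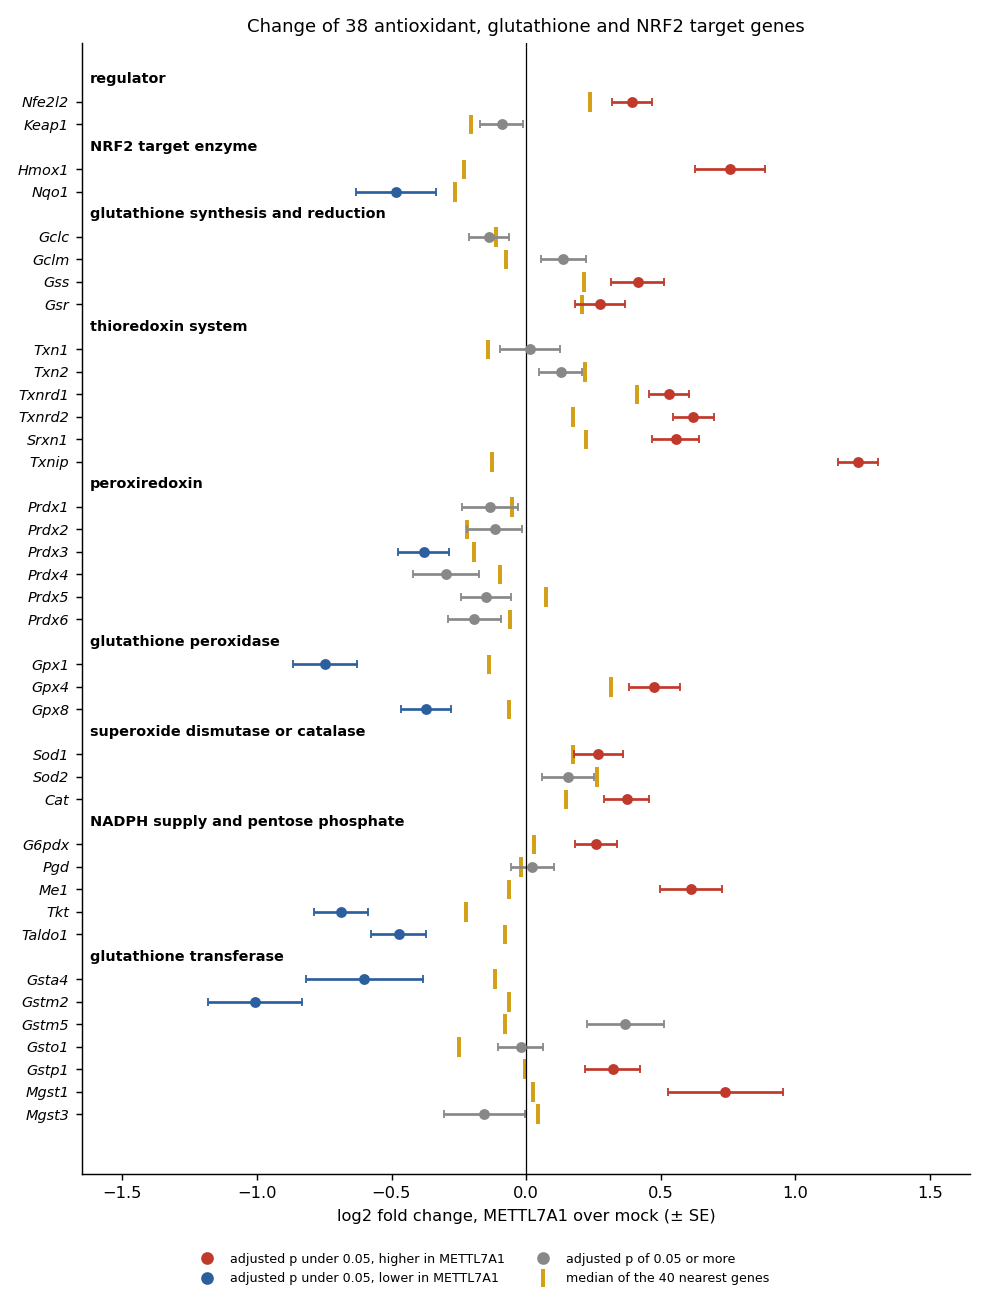
Each point is the log2 fold change of a member, METTL7A1 over mock, with its standard error as a bar; red and blue mark members called higher and lower, grey those not called, and the vertical yellow mark is the median over the 40 nearest expressed genes on the chromosome. Here the 4 called thioredoxin system genes lie to the right, from 0.53 to 1.23, all 6 peroxiredoxin estimates lie left of 0, and the glutathione peroxidases fall on both sides.

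Members are also set beside the genes around them. For each gene, the neighbours' value is the median log2 fold change over 40 tested genes, those closest on the chromosome with an average log2 cpm over 2. In 19 of the 23 called members it had the sign of the member's own change, as in 4072 of the 5537 called genes. When the neighbours' median was entered as an offset, 13 of the 23 were still called in the same direction, as were 3340 of the 5537 called genes. Gstm5 was newly called. In all, 14 of the 38 tested members were called with the offset, compared with 4146 of the 13166 tested genes (31.5%). The 13 were Hmox1, Txnrd2, Srxn1, Txnip, Gpx1, Gpx8, G6pdx, Me1, Tkt, Taldo1, Gstm2, Gstp1 and Mgst1. The calls no longer made were those of Nfe2l2, Nqo1, Gss, Gsr, Txnrd1, Prdx3, Gpx4, Sod1, Cat and Gsta4. The part of the surroundings in these was not tested. The neighbours' median came from the same data and was entered as a fixed value. Its own uncertainty is therefore not in the p values with the offset.

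The regulators were considered first. Nfe2l2, which encodes NRF2, was at 60.5, 64.0 and 64.9 cpm in METTL7A1 replicates 1 to 3 and at 49.3, 51.1 and 44.0 cpm in mock replicates 1 to 3. The groups did not overlap, and Nfe2l2 rose 1.31-fold (log2 fold change 0.39, SE 0.08, edgeR adjusted p = 0.00174). Its neighbours on chromosome 2 had a median of 0.24, and with the neighbour offset the difference was 0.16 (edgeR adjusted p = 0.142). Keap1, its inhibitor, had 46.5 ± 2.39 cpm in METTL7A1 and 49.6 ± 4.08 cpm in mock (SD, n = 3 each), the groups overlapped, and the difference of -0.09 on the log2 scale (SE 0.08) was not called (edgeR adjusted p = 0.394).

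The 2 classical NRF2 target enzymes went in opposite directions. Hmox1, heme oxygenase, which breaks down heme, had 11.5, 11.1 and 12.6 cpm in the METTL7A1 libraries against 7.22, 7.72 and 5.92 cpm in mock. It rose 1.69-fold (log2 fold change 0.76, SE 0.13, edgeR adjusted p = 0.000854), although its neighbours on chromosome 8 had a median of -0.23, and all 15 alternative analyses kept the call. Nqo1, the quinone reductase often used as a readout of NRF2, had 3.88, 3.93 and 4.54 cpm in METTL7A1 and 6.12, 5.94 and 5.27 cpm in mock. It was lower in every METTL7A1 library than in any mock library and fell by 0.48 on the log2 scale (SE 0.15, edgeR adjusted p = 0.0219). This call was weak: omitting METTL7A1 replicate 1 or 2 ended it (-0.44 and -0.45), as did omitting mock replicate 1 or 2 (-0.43 and -0.47), and so did the fit with no abundance filter (-0.45, edgeR adjusted p = 0.052) and the neighbour offset (-0.22, edgeR adjusted p = 0.293).

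**Figure D2:**
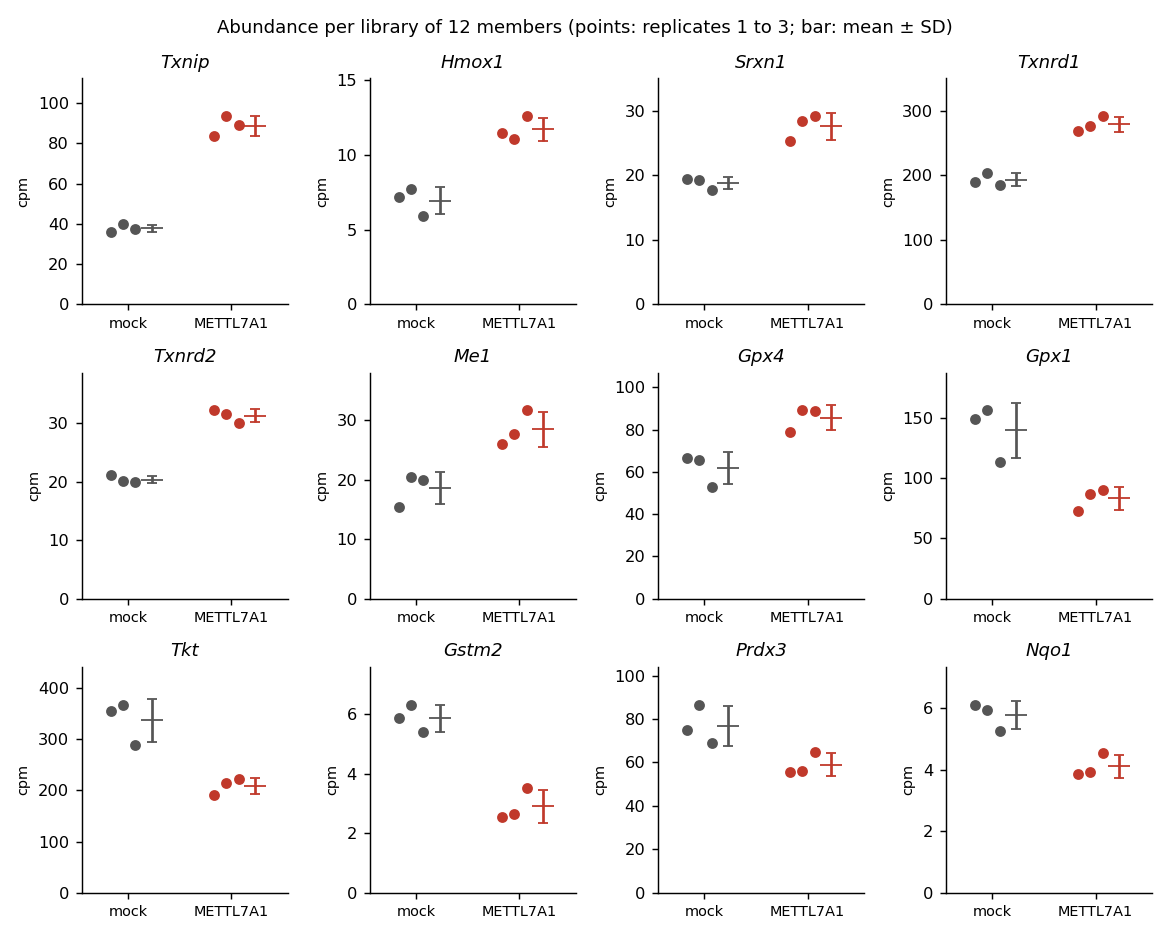
The cpm of 12 members in each library is plotted, with replicates 1 to 3 as points from left to right and the mean ± SD beside them; each vertical axis starts at 0. The groups do not overlap in any of the 12, with METTL7A1 above mock from Txnip to Gpx4 and below it from Gpx1 to Nqo1. All 12 are among the 23 of 38 tested members without overlap, so this adds no further result. Over all genes, 51.6% had no overlap.

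Of the 4 genes of glutathione synthesis and reduction, 2 rose and 2 were not called (of all tested genes 21.1% rose and 21% fell). Glutamate-cysteine ligase joins glutamate and cysteine, with Gclc as its catalytic and Gclm as its modifier subunit. Gclc had 51.2, 46.6 and 45 cpm in METTL7A1 and 54.9, 50.8 and 51.4 cpm in mock, and Gclm 48.7, 47.9 and 54.6 cpm against 42.4, 49.6 and 45.2 cpm. The groups overlapped for both, and neither passed the test, with log2 fold changes of -0.14 (SE 0.07) and 0.14 (SE 0.08). Glutathione synthetase, which adds the last amino acid, did change: Gss had 14.4, 15.9 and 15.6 cpm in METTL7A1 and 11.2, 12.2 and 11.1 cpm in mock. It rose 1.33-fold (log2 fold change 0.41, SE 0.10, edgeR adjusted p = 0.00607), with neighbours at 0.21 and a difference of 0.20 with the offset (edgeR adjusted p = 0.148). Gsr, glutathione reductase, which recycles oxidised glutathione with NADPH, ranged from 119 to 142 cpm in METTL7A1 and from 96.4 to 120 cpm in mock, so the groups overlapped. It was called at 0.27 (SE 0.09, edgeR adjusted p = 0.035). Omitting METTL7A1 replicate 2 or 3 ended the call (0.27 and 0.21), as did omitting mock replicate 1 or 3 (0.29 and 0.20) and the neighbour offset (0.07).

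In the thioredoxin system 4 of 6 members rose and none fell, where 21.1% of all tested genes rose and 21% fell. The 4 include the inhibitor Txnip beside reductases, and 3 of the 4 were still called with the neighbour offset. Txnip, which encodes an inhibitor of thioredoxin that also limits glucose uptake, was at 83.5, 93.5 and 88.9 cpm in the METTL7A1 libraries and at 36.1, 39.7 and 37.3 cpm in the mock libraries. All METTL7A1 values were more than 80 cpm and all mock values less than 40 cpm. It rose 2.35-fold (log2 fold change 1.23, SE 0.07, edgeR adjusted p = 5.86e-07), the largest change of the 38 tested members, while its neighbours on chromosome 3 had a median of -0.13. Omission of any 1 library gave estimates between 1.19 and 1.28.

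The 2 thioredoxin reductases among the members, selenoproteins that reduce thioredoxin with NADPH, were higher, whereas the thioredoxins themselves were not called. The third reductase, Txnrd3, of the wider list, had 5.44 ± 0.217 cpm in METTL7A1 and 5.23 ± 0.203 cpm in mock (SD, n = 3 each) and was not called (log2 fold change 0.06, SE 0.13, edgeR adjusted p = 0.749). Txnrd1, the cytosolic reductase and an NRF2 target, had 269, 277 and 292 cpm in METTL7A1 and 190, 204 and 185 cpm in mock, a 1.45-fold rise (log2 fold change 0.53, SE 0.07, edgeR adjusted p = 0.000218). Its neighbours on chromosome 10 had a median of 0.41, and with the offset the difference was 0.12 (edgeR adjusted p = 0.249). Txnrd2, the mitochondrial reductase, had 32.2, 31.6 and 30 cpm against 21.1, 20.1 and 19.9 cpm. It rose 1.54-fold (log2 fold change 0.62, SE 0.08, edgeR adjusted p = 9.59e-05) and was still called with the offset (0.45, edgeR adjusted p = 0.00122). Cytosolic Txn1 had 201 ± 25.6 cpm in METTL7A1 and 199 ± 26.1 cpm in mock, and mitochondrial Txn2 44.0 ± 2.67 and 40.4 ± 2.88 cpm (SD, n = 3 each). Their log2 fold changes of 0.01 (SE 0.11) and 0.13 (SE 0.08) were not called. Within each library, the level of Txnrd1 relative to Txn1 (both per exon length) was 0.475, 0.417 and 0.399 in METTL7A1 replicates 1 to 3 and 0.300, 0.276 and 0.324 in mock replicates 1 to 3.

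Srxn1 encodes sulfiredoxin, which repairs overoxidised peroxiredoxins and is a target of both NRF2 and AP-1. It had 25.3, 28.4 and 29.2 cpm in METTL7A1 and 19.4, 19.4 and 17.8 cpm in mock. The rise was 1.47-fold (log2 fold change 0.56, SE 0.09, edgeR adjusted p = 0.000493), and 0.33 with the neighbour offset (edgeR adjusted p = 0.0138).

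The peroxiredoxins reduce hydrogen peroxide, most of them at the expense of thioredoxin. All 6 log2 fold changes were negative, from -0.38 to -0.12, and 1 of the 6 was called, where 42.1% of all tested genes were. Prdx3, the mitochondrial form, had 55.5, 56.3 and 65.0 cpm in METTL7A1 and 74.9, 86.7 and 68.7 cpm in mock. It fell by 0.38 on the log2 scale (SE 0.10, edgeR adjusted p = 0.00818). Its neighbours on chromosome 19 had a median of -0.19, and with the offset the difference was -0.19 (edgeR adjusted p = 0.166). Prdx1, the most abundant by length, had 241, 279 and 310 cpm in METTL7A1 and 295, 336 and 280 cpm in mock, with overlapping groups and a difference of -0.13 on the log2 scale (SE 0.10, edgeR adjusted p = 0.334). Prdx2 (-0.12), Prdx4 of the endoplasmic reticulum (-0.30), Prdx5 (-0.15) and Prdx6 (-0.19) also overlapped between groups. Prdx4 passed the threshold without METTL7A1 replicate 3 (-0.40, edgeR adjusted p = 0.0256) or mock replicate 3 (-0.37, edgeR adjusted p = 0.0291) or with no abundance filter (-0.26, edgeR adjusted p = 0.0288), and Prdx6 without mock replicate 3 (-0.27, edgeR adjusted p = 0.026).

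Within the groups METTL7A1 replicate 1 and mock replicate 3 were low for many members. The median member deviated from its group mean by -0.11 in METTL7A1 replicate 1 and by -0.12 in mock replicate 3 (log2 of cpm plus 0.5), where the median over all genes deviated by 0.00 and -0.03. The summed level of the peroxiredoxins was 657, 754 and 817 cpm in METTL7A1 replicates 1 to 3 and 837, 929 and 753 cpm in mock replicates 1 to 3, so the sums overlapped. These 2 libraries also had the smallest share of counts from the ribosomal repeat genes Gm42418 and AY036118 within their groups, 0.872% and 1.48%, compared with up to 4.94% in METTL7A1 and 14.2% in mock. The part of that difference in the members' spread was not tested.

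**Figure D3:**
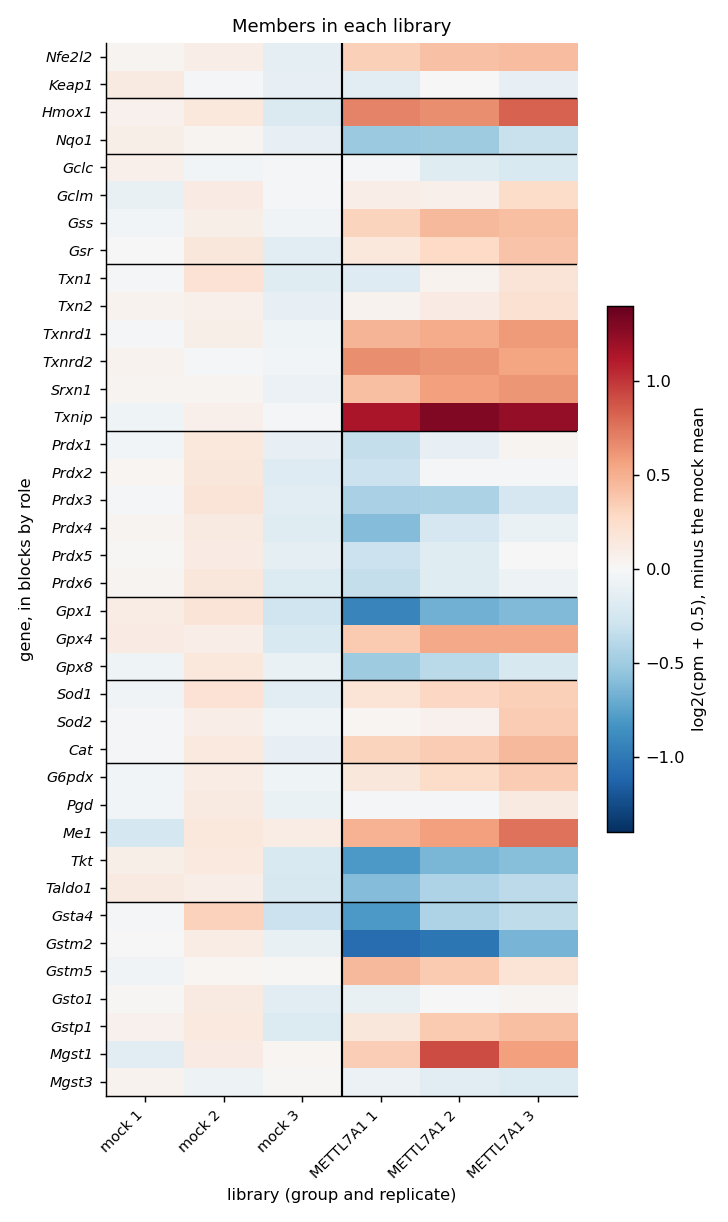
Colours give log2(cpm + 0.5) of each tested member in each library minus the mean of the 3 mock libraries, with members in blocks by role and mock libraries left of the vertical line. Txnip, Hmox1, Txnrd1 and Txnrd2 are red in all 3 METTL7A1 libraries and Gpx1, Tkt and Gstm2 blue, and within the peroxiredoxin block METTL7A1 replicate 1 is the bluest.

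Among the glutathione peroxidases 2 fell and 1 rose (of all tested genes 21% fell and 21.1% rose). Gpx1, the main cytosolic peroxidase and a selenoprotein, had 72.7, 87.0 and 90.0 cpm in METTL7A1 and 149, 157 and 114 cpm in mock. Every METTL7A1 library was below every mock library, and Gpx1 fell by 0.75 on the log2 scale (SE 0.12, edgeR adjusted p = 0.000533), with neighbours on chromosome 9 at -0.14. Gpx4, the selenoprotein that reduces lipid peroxides in membranes and protects from ferroptosis, had 79.1, 89.1 and 88.8 cpm in METTL7A1 and 66.7, 65.7 and 52.9 cpm in mock. It rose 1.39-fold (log2 fold change 0.48, SE 0.09, edgeR adjusted p = 0.00214), and its neighbours on chromosome 10 had a median of 0.31, with a difference of 0.16 under the offset (edgeR adjusted p = 0.225). Of the stretches of 31 bases in Gpx4 transcripts 38.9% also occur in other genes, chiefly Gpx4-ps2, which had 0 counts, so the count of Gpx4 is less certain. Gpx8, of the endoplasmic reticulum, had 32.3, 35.2 and 39 cpm against 44.0, 50.8 and 43.1 cpm in mock and fell by 0.37 (SE 0.09, edgeR adjusted p = 0.00775). The level of Gpx4 relative to Gpx1, both per exon length, was 0.916, 0.863 and 0.832 in METTL7A1 replicates 1 to 3 and 0.376, 0.354 and 0.392 in mock replicates 1 to 3. The secreted Gpx3 had 3 to 5 counts in METTL7A1 libraries and 1 to 3 in mock and was not tested.

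Superoxide dismutases turn superoxide into hydrogen peroxide, which catalase splits. Cat had 42.2, 43.6 and 46.6 cpm in METTL7A1 and 33.4, 37.5 and 31.5 cpm in mock and rose 1.3-fold (log2 fold change 0.37, SE 0.08, edgeR adjusted p = 0.00421). The difference was 0.22 with the neighbour offset (edgeR adjusted p = 0.0613). Cytosolic Sod1 ranged from 111 to 122 cpm in METTL7A1 and from 87.2 to 111 cpm in mock, and was called at 0.27 (SE 0.09, edgeR adjusted p = 0.035). Omitting METTL7A1 replicate 2 or 3 ended this call (0.26 and 0.24), as did omitting mock replicate 1 or 3 (0.26 and 0.20) and the offset (0.09). Mitochondrial Sod2 had 41.3, 42.6 and 52.1 cpm against 40, 43.3 and 38.9 cpm and was not called (0.16, SE 0.09, edgeR adjusted p = 0.215). Its transcripts share 26.6% of their stretches of 31 bases with other genes.

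Of the 5 genes of NADPH supply and the pentose phosphate pathway, 2 rose, 2 fell and 1 was not called. The shares over all tested genes were 21.1% higher and 21% lower. G6pdx, glucose-6-phosphate dehydrogenase, the entry to the oxidative branch, had 55.3, 59.3 and 63.2 cpm in METTL7A1 and 48.3, 53.0 and 47.3 cpm in mock and rose 1.2-fold (log2 fold change 0.26, SE 0.08, edgeR adjusted p = 0.0189). Without METTL7A1 replicate 2 or 3 or mock replicate 1 it was no longer called (0.26, 0.22 and 0.26). Pgd, the next NADPH-producing enzyme, had 85.2 ± 5.46 and 83.9 ± 6.96 cpm (SD, n = 3 each; log2 fold change 0.02, SE 0.08, not called). Me1, cytosolic malic enzyme, had 26.0, 27.7 and 31.6 cpm against 15.4, 20.4 and 19.8 cpm and rose 1.53-fold (log2 fold change 0.61, SE 0.12, edgeR adjusted p = 0.00157), with neighbours at -0.06. Transcripts of Me1 share 30% of stretches of 31 bases with other genes, chiefly Gm7049, which had 0 counts. Those of G6pdx share 12.6% with G6pd2, which had at most 1 count in any library.

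Both transferases of the non-oxidative branch fell. Tkt, transketolase, had 192, 215 and 221 cpm in METTL7A1 and 354, 368 and 289 cpm in mock, with no overlap. It fell by 0.69 on the log2 scale (SE 0.10, edgeR adjusted p = 0.000289), and by 0.46 with the neighbour offset (edgeR adjusted p = 0.00488). Taldo1, transaldolase, had 31.7, 35.9 and 37.4 cpm against 53.1, 51.9 and 41.4 cpm and fell by 0.47 (SE 0.10, edgeR adjusted p = 0.00366). The level of G6pdx relative to Tkt, per exon length, was 0.351, 0.336 and 0.347 in METTL7A1 and 0.166, 0.175 and 0.199 in mock.

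Glutathione transferases attach glutathione to electrophiles and drugs. Of 9 listed, 7 were tested, 2 rose and 2 fell, where 21.1% of all tested genes rose and 21% fell. Gstm2 had 2.53, 2.64 and 3.53 cpm in METTL7A1 and 5.85, 6.31 and 5.39 cpm in mock. It had the largest fall of the 38 tested members, by 1.01 on the log2 scale (SE 0.17, edgeR adjusted p = 0.00089), and was called in all 15 alternatives. Its neighbour in the gene cluster, Gstm5, had 6.30, 5.92 and 5.19 cpm against 4.32, 4.58 and 4.55 cpm. For Gstm5 the groups did not overlap, yet the log2 fold change of 0.37 (SE 0.14) missed the threshold (edgeR adjusted p = 0.0603) and passed it with the neighbour offset (0.45, edgeR adjusted p = 0.0352). Gstm1 of the same cluster had 10 to 17 counts in METTL7A1 libraries and 4 to 8 in mock and was not tested. In Gstm1 transcripts 28.8% and in Gstm2 transcripts 12.2% of the stretches of 31 bases also occur in transcripts of other genes, so their counts are less certain, whereas none in Gstm5 does. The genes sharing most with them were pseudogenes or predicted genes with at most 2 counts in any library.

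Gsta4, which conjugates the lipid peroxidation product 4-hydroxynonenal, had 2.32, 3.15 and 3.37 cpm in METTL7A1 and 4.37, 5.65 and 3.50 cpm in mock and fell by 0.60 (SE 0.22, edgeR adjusted p = 0.0442). This was the least stable call, lost in 5 of the 6 fits without a library, all but that without mock replicate 3; the estimates of the 5 were -0.46, -0.65 and -0.70 without METTL7A1 replicates 1, 2 and 3 and -0.61 and -0.40 without mock replicates 1 and 2. It was also lost with DESeq2 (adjusted p = 0.0508), with limma voom (adjusted p = 0.0533), after removal of the 20 most abundant genes (edgeR adjusted p = 0.05001) and with the neighbour offset (edgeR adjusted p = 0.114). Gstp1 had 35.3, 41 and 42.5 cpm against 33.1, 34.7 and 27.5 cpm and rose 1.25-fold (log2 fold change 0.32, SE 0.10, edgeR adjusted p = 0.026). It lost its call without METTL7A1 replicate 2 or 3 (0.29 and 0.27) or mock replicate 3 (0.23). Gstp1 shares 38.54% of its stretches of 31 bases with Gstp2, which had at most 4 counts in any library.

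The microsomal Mgst1 had 2.96, 4.67 and 3.57 cpm in METTL7A1 and 1.97, 2.48 and 2.29 cpm in mock and rose 1.67-fold (log2 fold change 0.74, SE 0.21, edgeR adjusted p = 0.0166). It was not called without METTL7A1 replicate 2 (0.54) or mock replicate 1 (0.68). Mgst3 (-0.16, SE 0.15) and Gsto1 (-0.02, SE 0.08) were not called, and Mgst2 had 7 to 8 counts in METTL7A1 and 2 to 4 in mock libraries and was not tested.

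Levels were compared between genes after division by exon length. In mock cells the highest were Txn1 at 189 ± 24.8, Sod1 at 151 ± 19.1, Gpx1 at 130 ± 21.4, Prdx1 at 119 ± 11.5 and Tkt at 105 ± 12.9 cpm per kilobase (SD, n = 3 each). The SDs of neighbours in this order overlapped. In METTL7A1 cells Txn1 (191 ± 24.4), Sod1 (181 ± 9.30) and Prdx1 (109 ± 13.7) had ranks 1 to 3, Txnrd1 (81.6 ± 3.47) had rank 4 and Gpx1 (77.7 ± 8.6) rank 5. Txnip went from rank 22 of 38 in mock to rank 18, and Tkt from rank 5 to rank 9. The lowest tested member in both groups was Mgst1, at 1.22 ± 0.140 in mock and 2.04 ± 0.472 cpm per kilobase in METTL7A1.

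**Figure D4:**
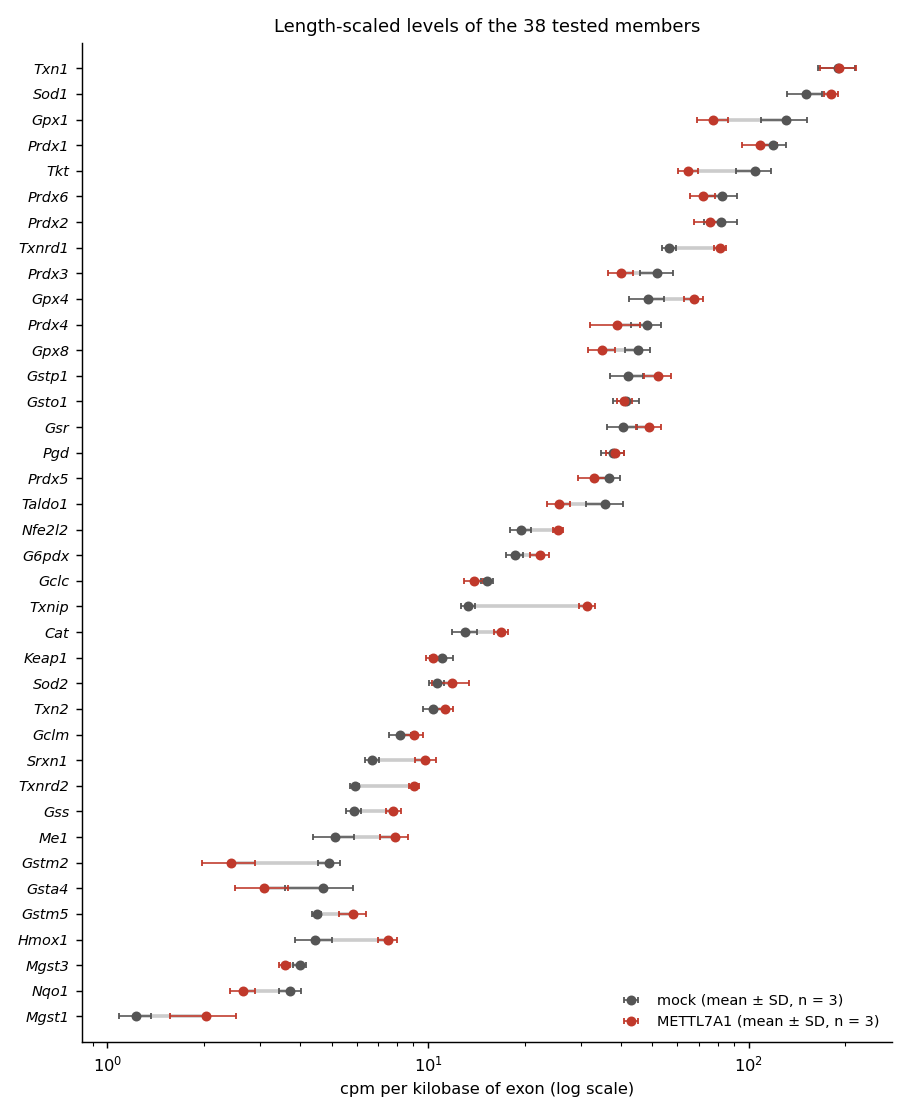
Mean cpm per kilobase of exon (log axis) is shown for the 38 tested members in mock (grey) and METTL7A1 (red), with SD bars over 3 libraries and members in order of their mock level. Levels run from about 1.22 for Mgst1 to 189 for Txn1 in mock, and the longest grey links between the groups are those of Txnip and Gstm2.

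Promoter sequences of members were taken from RefSeq (GRCm38.p6, the build of the count table, which is also named mm10), from 250 bases before to 50 bases after each annotated start, and 36 of the 41 members matched. They were searched on both strands for the core of the antioxidant response element, TGACNNNGC, for the form bound best by NRF2 with MAF, TGANTCAGC, and for the AP-1 element TGAGTCA. These overlap: TGACTCAGC is a match to both of the first letter strings and holds the AP-1 element on the other strand. The core was found in 11 of the 36 members (30.6%), where a gene counts if any of its windows holds a match. Counted singly, 12.4% of all 32851 windows held it, a share per window that cannot be set against one per gene. By call, 7 of the 13 matched members that were higher held it (Nfe2l2, Srxn1, Txnrd1, Sod1, G6pdx, Me1 and Mgst1), none of the 7 that were lower did, and 4 of the 13 that were not called did (Gclm, Prdx1, Pgd and Gstm5). Among all tested genes, counted per gene as for the members, the shares were 18.5% of those higher, 16.5% of those lower and 16.9% of those not called. TGANTCAGC was found in 4 of the 36 members (11.1%), namely Srxn1, Me1, Gstp1 and Prdx1. Per gene, it was in 2.01% of all genes higher, 1.07% of those lower and 1.13% of those not called. The AP-1 element was found in 6 of the 36 members (16.7%). Its shares per gene were 7.58%, 3.65% and 3.74% in the same order. Counted per window, these strings were in 1.19% and 5.2%. Hmox1, Gclc, Gsr, Gsta4 and Prdx6 were not matched. A match describes letters only, and elements farther from the start were not searched.

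The following stretches, 5′ to 3′ on the strand of the gene, show where these letters lie upstream of 3 members that rose and 2 that were not called. Capitals mark matches to the 3 strings, on either strand.
Srxn1, rose, chr2:152105392-152105523, plus strand: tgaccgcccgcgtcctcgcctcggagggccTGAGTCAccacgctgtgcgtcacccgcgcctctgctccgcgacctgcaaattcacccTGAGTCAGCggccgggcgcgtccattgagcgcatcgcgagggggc
Txnrd1, rose, chr10:82859084-82859205, plus strand: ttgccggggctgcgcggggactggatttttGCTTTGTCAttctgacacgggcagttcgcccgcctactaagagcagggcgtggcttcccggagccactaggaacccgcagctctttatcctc
Sod1, rose, chr16:90220676-90220741, plus strand: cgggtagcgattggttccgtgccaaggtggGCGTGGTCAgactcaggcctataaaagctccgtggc
Prdx1, not called, chr4:116685349-116685504, plus strand: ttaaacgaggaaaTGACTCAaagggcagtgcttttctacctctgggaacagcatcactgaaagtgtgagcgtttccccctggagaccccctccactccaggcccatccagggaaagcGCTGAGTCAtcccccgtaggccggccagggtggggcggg
Gclm, not called, chr3:122245393-122245542, plus strand: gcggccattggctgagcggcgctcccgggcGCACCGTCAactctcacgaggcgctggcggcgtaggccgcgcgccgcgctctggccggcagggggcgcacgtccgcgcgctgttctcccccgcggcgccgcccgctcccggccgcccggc

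In Srxn1, whose core match began 29 bases after the start and is not shown, the AP-1 elements began 102 and 45 bases before the start, and the latter continued into TGAGTCAGC. In Prdx1, whose level was not called, the same kind of site (TGACTCAGC on the opposite strand) began 133 bases before the start. Txnrd1 and Gclm each held the core TGACNNNGC on the opposite strand, beginning 92 and 134 bases before the start, with log2 fold changes of 0.53 and 0.14. Matches to the same strings, not always with the same letters, thus stood before printed members that rose and before printed members not called. The printed promoters were chosen after the values were seen, and no lowered member is among them. Among all matched members that were tested, the core was in 7 of 13 higher, 0 of 7 lower and 4 of 13 not called. Whether these shares differ was not tested.

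Other genes of the pathway were taken from a wider list of 73, of which 72 were in the table and 54 were tested. Of these 20 were higher and 11 lower at an adjusted p under 0.05 (57.4%, compared with 42.1% of all genes), and 3 passed the study thresholds. The 3 were Chac1, Slc7a11 and Ephx1, all higher. The counts of calls include genes that passed the abundance filter through 1 group only, so their direction was fixed by the filter. These were Ephx1 and Ggt7 (1.66 cpm in METTL7A1 and 0.676 cpm in mock, means), through METTL7A1, and Gsta1 (0.765 and 1.47 cpm), through mock. Slc7a11, the cystine importer that feeds glutathione synthesis, had 50.5, 75.1 and 62.7 cpm in METTL7A1 and 6.72, 8.34 and 6.68 cpm in mock (log2 fold change 3.11, SE 0.15, edgeR adjusted p = 1.31e-07). Chac1, which degrades glutathione, had 25.5, 38.7 and 32.8 cpm against 2.79, 2.93 and 2.37 cpm (log2 fold change 3.59, SE 0.17, edgeR adjusted p = 1.12e-07). Thus the importer of the precursor and an enzyme of breakdown each rose over 8-fold (8.65-fold and 12.1-fold), while Gclc and Gclm were not called. Ephx1, microsomal epoxide hydrolase, was at 3.06 ± 0.138 cpm in METTL7A1 and 0.232 ± 0.0872 cpm in mock (SD, n = 3 each; log2 fold change 3.66, SE 0.29).

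The next 6 by p value were Ggct, Osgin1, Sqstm1, Maff, Sesn2 and Rpia. Ggct, which acts on the gamma-glutamyl peptides released from glutathione, fell by 1.22 on the log2 scale (SE 0.10), from 17.5, 18.4 and 17.7 cpm in mock to 7.54, 7.75 and 7.75 cpm. Sqstm1, the autophagy receptor p62 that also binds KEAP1, rose from 163 ± 15.8 to 288 ± 26.4 cpm (SD, n = 3 each; log2 fold change 0.82, SE 0.09). Osgin1 (0.80, SE 0.08) is an oxidative stress response gene, Maff (0.87, SE 0.11) a small MAF partner of NRF2 and Sesn2 (1.35, SE 0.17) a stress-induced sestrin, and Rpia (0.54, SE 0.08) encodes ribose-5-phosphate isomerase of the pentose phosphate pathway. All 9 genes were called with the neighbour offset, and all but Ephx1 in each of the 6 fits that omit a library. Ephx1 had under 3 libraries at 1 cpm when a METTL7A1 library was omitted and was tested, and called, in the 3 fits without a mock library. Over all genes, 21.1% were higher and 21% lower. By role, the genes listed under NRF2 regulation and partners had 5 of 9 tested higher (Nfe2l1, Bach1, Maff, Sqstm1 and Sesn2) and none lower. That list mixes genes of unlike roles, so its count gives no direction for NRF2 activity. Other NRF2 targets had 4 higher and 3 lower of 11, and glutathione turnover and glutaredoxins 5 higher and 2 lower of 11. Other transferases had 2 higher and 2 lower of 5, other peroxide and thiol enzymes 3 higher and 3 lower of 10, and other NADPH sources 1 higher and 1 lower of 8. Ephx1, Ggt7 and Gsta1, whose direction the filter fixed, are in these counts.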

How the data were processed

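Total RNA libraries (Illumina Stranded Total RNA with Ribo-Zero Plus) of 3 METTL7A1 and 3 mock cultures were analysed, grouped and numbered by their titles. Per the labels and methods, the authors trimmed reads with BBDuk, aligned pairs to mm10 (GRCm38) with STAR 2.5.3a, and counted them on Ensembl genes with featureCounts. The deposited values are unnormalized whole counts, listed with exon positions and the summed exon length in bases. How strand and multiply mapped reads were treated is not given in the sources used here. AY036118, wholly within Gm42418 on the other strand, had more counts than Gm42418 in 6 of 6 libraries, which requires counting by strand.

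Genes with at least 1 cpm in at least 3 libraries (13166) were scaled with TMM and tested with edgeR 4.0.16 in R 4.3.3 (glmQLFit, glmQLFTest, no covariate), with Benjamini-Hochberg adjustment across all genes; calls are at 0.05. The SE is the log2 fold change divided by the square root of F. The script was tested on simulated data beforehand. Alternatives used RLE or upper quartile scaling, removal of the 20 most abundant genes, no filter, at least 10 counts in every library, a replicate block, omission of each library, DESeq2 1.42.0, limma 3.58.1 voom and the neighbour offset. Members and lists were chosen with earlier results of these data known. All members are named; of the wider list, genes past the study thresholds and the next 6 by p. The promoter strings and the 5 printed promoters were chosen after the values were seen. Shared stretches of 31 bases were counted in GENCODE M21 transcripts. An overlap of 1 member with another gene is not reported here.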

Additional observations from a re-analysis of the deposited data

How the results depend on the processing

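The number of called members was 23 and moved by more than 1.5 times under the neighbour offset alone (14); it was 23 with RLE scaling, upper quartile scaling, no filter and at least 10 counts in every library, and 22 with DESeq2, with voom and after removal of the 20 most abundant genes. With a library left out it ranged from 16 to 22, the lowest without METTL7A1 replicate 2. With no filter 22 of the 23 calls were kept, Nqo1 was lost and Prdx4 gained. Of the 23 calls 16 held whichever library was left out, as did 3428 of the 5537 over all genes. The wider list (31) ranged from 23 to 30 and the count over all genes (5537) from 3761 to 5753 in those fits. Genes past the study thresholds numbered 326, 710 with no filter (more genes tested), 205 with at least 10 counts in every library (fewer genes tested) and 243 to 282 with a library left out. Directions that reversed belonged to members that were not called: with the neighbour offset, Keap1 (0.11), Txn2 (-0.090), Prdx2 (0.10), Sod2 (-0.11) and Gsto1 (0.23); with no filter, Gsto1 (0.015); with a library left out, Txn1 (-0.068 to 0.12), Pgd (-0.027 to 0.088) and Gsto1 (-0.082 to 0.042).

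Same-numbered libraries had correlations of -0.15, 0.20 and -0.37 of their deviations from the group means. Differently numbered ones ranged from -0.47 (METTL7A1 replicate 1 with mock replicate 2) to 0.48 (METTL7A1 replicate 1 with mock replicate 3). With 3 libraries per group, these values cannot decide whether same-numbered libraries were paired. With replicate number as a block, 20 members, 30 genes of the wider list, 4810 genes in all and 331 past the study thresholds were called, and Nqo1, Gsr and Gsta4 lost their calls; Txnip stayed at 1.23. Depth limited Gpx3, Gstm1 and Mgst2, with at most 17 counts in any library.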

Other observations

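The metallothioneins, metal-binding and radical-scavenging proteins of the wider list, were chosen here after their values were seen. Mt1 was at 6.63, 7.79 and 6.77 cpm in METTL7A1 replicates 1 to 3 and at 13.3, 13.3 and 10.7 cpm in mock replicates 1 to 3, and Mt2 at 5.07, 6.3 and 5.8 cpm against 10.8, 10.4 and 9.18 cpm. Neither gene overlapped between the groups, as in 51.6% of all genes. Both fell by 0.81 on the log2 scale (SE 0.13 each, edgeR adjusted p = 0.000574 and 0.000604). They lie side by side on chromosome 8, where their neighbours had a median log2 fold change of -0.13, and both were still called with the neighbour offset (-0.68 and -0.69).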
